A study of Arabidopsis thaliana with 21 samples.

Results

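The comparison described here sets wild-type Arabidopsis thaliana seeds imbibed with ethylene for 24 h against wild-type seeds in water for 24 h. It uses 6 of the 21 RNA-seq libraries of the study, 3 with ethylene and 3 with water, chosen by the treatment and time in their titles. The other libraries hold the same kinds of seed at 6 and 16 h, and dry seeds. Seeds of all 6 libraries were of the same genotype and of Boyes stage 0.10, and were kept in long days at 20 °C. No ethylene dose and no accession of the wild type was given in the labels, and the treatment label of the water seeds names no treatment. Each library was made from polyA RNA of whole seeds, with strand kept, and was read from 1 end. A whole seed holds the embryo, 1 living layer of endosperm and the dead seed coat, so in these bulk samples fewer cells of a type and less RNA per cell cannot be told apart. The series' design text calls the replicates biological, but nothing states that they came from separate seed lots. Each p-value therefore weighs a difference against the spread among these 3 samples a group, which the test shares in part over genes. Part or all of that spread may be technical.

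Ethylene is a gas that plants make from methionine, through S-adenosylmethionine and ACC. Receptors in the endoplasmic reticulum keep the kinase CTR1 active in its absence. When ethylene binds, CTR1 is switched off, EIN2 signals to the nucleus, and the transcription factors EIN3 and EIL1 activate genes such as ERF1, EBF2 and the receptor gene ETR2. In seeds ethylene is known for promoting germination and for opposing abscisic acid, the hormone that drives seed maturation and keeps seeds dormant. A mature seed carries storage protein, oil and late embryogenesis abundant (LEA) proteins from its maturation, and it loses their transcripts as it turns to growth, a phase promoted by gibberellin.

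Ethylene libraries held between 19888335 and 21176545 reads on genes, and water libraries between 11687098 and 19390356, with replicate 1 the shallowest. The 10 genes with most reads took between 6.95% and 7.23% of the reads of ethylene seeds, against 15.4% to 16.5% in water seeds. Log levels across genes correlated at 0.994 between ethylene replicates, at 0.988 to 0.990 between water replicates, and at 0.786 to 0.807 between the groups. Water replicate 3 stood apart in its high light-harvesting transcripts, which are set out with the photosynthesis genes and other measures of that library. Levels are in CPM, counts brought to a common library size, here after scaling by the trimmed mean of M values over the 6 libraries. A log2 difference is ethylene minus water. The value after ± on a log2 difference is an approximate standard error. It is the size of the difference over the square root of the F statistic of the test. A gene is called changed at a false discovery rate (FDR) under 0.05 in edgeR's quasi-likelihood test, adjusted over all genes tested.

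Most of the seed transcriptome differed. Of 18245 genes tested, 15458 (84.7%) were called: 7799 (42.7%) were higher with ethylene and 7659 (42.0%) were lower. Changes of at least 2-fold numbered 4049 higher (22.2%) and 3486 lower (19.1%). Genes at least 8-fold higher numbered 381 and genes at least 8-fold lower 605, and past 32-fold there were 40 higher and 266 lower. The order at 8-fold depended on the scaling, since library totals gave 631 higher and 509 lower and a fit with 17 imbibed libraries 590 higher and 596 lower. Past 32-fold, library totals gave 49 higher and 244 lower, and leaving out water replicate 2 gave 70 higher and 279 lower. The median log2 difference over all genes was 0.02, against which the lists below are to be read. Scaling by library totals instead moved that median to 0.36, and made 64.1% of the calls increases, against 50.5% here. A list whose share of calls is near the percentages above says little about its members.

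**Figure D1:**
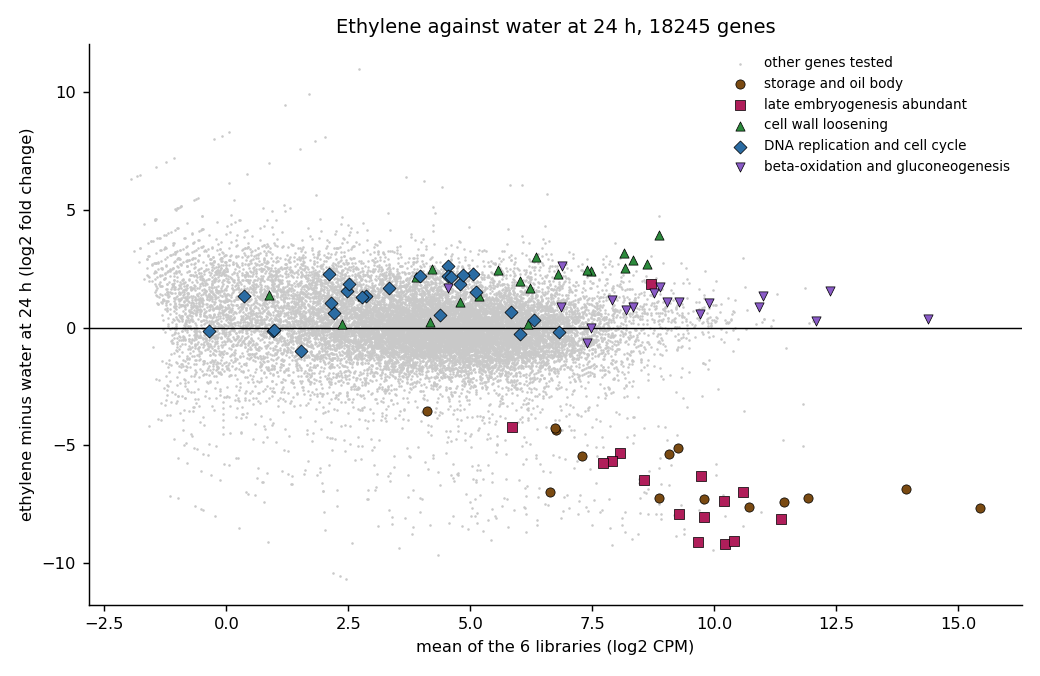
Log2 difference between ethylene and water seeds at 24 h (vertical axis) against mean level in log2 CPM (horizontal axis) for all 18245 genes tested, with the members of 5 gene lists coloured and all other genes in grey. More genes lie past 32-fold lower (266) than past 32-fold higher (40).

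The steepest changes are drawn from the 10 genes with the largest rise and the 10 with the largest fall, among called genes with a symbol, a mean of at least 2 CPM and groups that do not overlap. GA2OX3 (AT2G34555), which encodes an enzyme that inactivates gibberellin, had 14, 12.3 and 13.1 CPM in the ethylene libraries and no read in any water library, so it was at least 194-fold higher, with 3 counts over the water group taken as the floor. UMAMIT11, which encodes a transporter of the amino acid exporter family, was read 318 times over the ethylene libraries and never in water, at least 67.6-fold higher. AHP1, which encodes a phosphotransmitter of cytokinin signalling, had 391 reads with ethylene and 1 with water, a ratio of 249 with a 95% exact counting interval from 44.5 to 9879, which covers counting error only. Next came ARGOS at 6.23, ORS1 at 6.05, the cytochrome P450 gene CYP71B29 at 5.21, ACO5 at 5.1, GH3.3 at 4.96 and EDF3 at 4.88 on the log2 scale. ARGOS and ORS1 encode related small membrane proteins, of which ARGOS lowers ethylene sensitivity, ACO5 belongs to the ACC oxidase family, and EDF3 is an ethylene response DNA binding factor.

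The steepest decreases were in genes of late seed maturation and drying. EM1, EM6 and ECP31 encode LEA proteins, and their log2 differences were -9.18, -9.05 and -9.12. TSPO, which encodes a membrane protein induced by abscisic acid and water loss, had 0.79, 0.777 and 0.803 CPM in ethylene seeds, against 500.0, 437 and 491 CPM in water seeds. The gene LTI65, also known as RD29B and induced by drought, differed by -8.67, the metallothionein gene AtMT4b by -8.76, and the galactinol synthase gene GolS2, for the protective raffinose sugars, by -8.46. GASA3 and GASA2, which encode small cysteine-rich peptides, differed by -8.98 and -8.63. HMT3, which encodes a homocysteine methyltransferase, had 2 reads in all with ethylene and 1030 with water, a water to ethylene ratio of 807 with a 95% exact counting interval from 223 to 6674.

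The stored reserves showed the widest gap in absolute terms. The list of seed storage and oil body proteins held 15 genes, of which 14 were tested and all 14 fell, at a median log2 difference of -6.92. Together they took between 0.0865% and 0.125% of gene reads in ethylene seeds, against 12% to 13.1% in water seeds. Such shares, here and below, are of each library's own reads on genes, without the scaling used for levels. CRA1 (AT5G44120), which encodes the 12S globulin cruciferin, had 353, 419.9 and 540.0 CPM with ethylene, against 87429, 84665 and 93810.4 CPM with water. CRA1 was thus 203-fold lower with ethylene (log2 difference -7.66 ± 0.15, edgeR's quasi-likelihood test, adjusted p = 6.77e-20), and its 3 ethylene libraries all lay far below the lowest water library. The other cruciferin genes CRB and CRC fell by 5.35 and 6.86 on the log2 scale. Among the 2S albumins, SESA3 had 29.2, 33.2 and 40.9 CPM with ethylene, against 1175, 1144 and 1230.3 CPM with water, a log2 difference of -5.1 ± 0.09. SESA1 and SESA4 fell less, by 4.37 and 4.28, and SESA5 fell by 7.42. SESA1 to SESA4 are close copies side by side in the genome, so reads they share may have been lost or split by the counting.

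Oil bodies are bounded by oleosins, the proteins that keep oil droplets small in dry seeds. OLEO1 had 15.6, 15.8 and 19 CPM in ethylene seeds, against 3445, 3095 and 3448 CPM in water seeds, a log2 difference of -7.63 ± 0.09. OLEO2 and OLEO4 fell by 7.28 and 7.25, the caleosin gene ATS1 by 6.98 and the vicilin-like gene PAP85 by 7.23. OLEO3 had the smallest drop of the list, at -3.54. Of 11 genes tested whose product is named an oleosin, 10 fell and 1 rose.

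LEA proteins and their companions protect cells during drying. Of the 15 listed, all were tested, 14 fell and 1 rose, at a median log2 difference of -6.99. Their share of gene reads lay between 0.0807% and 0.0965% in ethylene seeds, against 2.1% to 2.25% in water seeds. EM6 (AT2G40170) had 7.45, 4.02 and 3.61 CPM with ethylene, against 2826, 2468 and 2767 CPM with water, 530.1-fold lower (log2 difference -9.05 ± 0.14, edgeR's quasi-likelihood test, adjusted p = 2.65e-21). Its relative EM1 had 3.37, 4.1 and 4.82 CPM with ethylene and 2524, 2220.0 and 2348 CPM with water. The dehydrin gene RAB18, a textbook target of abscisic acid, had 22.5, 15.1 and 18 CPM in ethylene seeds, against 5433, 5162 and 5171 CPM in water seeds, a log2 difference of -8.14 ± 0.11. Every ethylene library lay far below every water library in these genes. PER1, which encodes a seed peroxiredoxin, fell by 6.99. The member that rose was SAG21, an LEA-type gene also induced by stress in seedlings and leaves, at 679, 589 and 694 CPM in ethylene seeds, against 196, 188 and 159 CPM in water seeds (log2 difference 1.85 ± 0.07).

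The promoters of 4 genes of the storage and LEA lists are printed here, chosen because they hold short motifs known from seed maturation and not for the size of their fall. ACGTG is the core of the abscisic acid response element (ABRE), which binds factors such as ABI5, and CATGCA is the RY motif, which binds factors such as ABI3. Both were searched on both strands of the 250 bases before the annotated start of 17548 of the 18245 tested genes, on the genome TAIR10.1 with RefSeq gene models matched by gene identifier. The count files give no coordinates, and the submitters' processing notes name TAIR10. Capitals mark ACGTG or its complement in the first 3 sequences and CATGCA or its complement in the last, each written 5′ to 3′ on the strand of the gene.
EM6, chr2:16780369-16780618, minus strand: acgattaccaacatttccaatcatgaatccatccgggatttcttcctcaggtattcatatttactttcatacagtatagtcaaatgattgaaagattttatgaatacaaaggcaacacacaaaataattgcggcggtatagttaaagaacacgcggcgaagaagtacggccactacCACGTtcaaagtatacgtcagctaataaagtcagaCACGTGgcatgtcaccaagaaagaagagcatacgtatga
EM1, chr3:19214472-19214721, plus strand: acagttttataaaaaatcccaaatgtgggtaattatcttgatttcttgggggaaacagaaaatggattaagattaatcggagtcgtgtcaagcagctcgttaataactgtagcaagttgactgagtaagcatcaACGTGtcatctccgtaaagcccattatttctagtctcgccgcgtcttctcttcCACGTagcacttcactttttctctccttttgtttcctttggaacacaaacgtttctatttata
LEA7, chr1:19619474-19619723, plus strand: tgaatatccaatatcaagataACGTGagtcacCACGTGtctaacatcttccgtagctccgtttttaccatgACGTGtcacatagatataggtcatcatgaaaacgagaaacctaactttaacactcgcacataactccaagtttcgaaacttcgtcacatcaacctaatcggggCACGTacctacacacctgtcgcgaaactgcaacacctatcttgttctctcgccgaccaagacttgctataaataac
SESA3, chr4:13611546-13611795, plus strand: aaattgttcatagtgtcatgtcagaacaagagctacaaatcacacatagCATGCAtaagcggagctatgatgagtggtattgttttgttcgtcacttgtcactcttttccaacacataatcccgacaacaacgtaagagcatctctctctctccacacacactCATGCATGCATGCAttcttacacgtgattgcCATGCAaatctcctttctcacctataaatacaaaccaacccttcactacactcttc
The EM6 window held 3 matches, the EM1 window 2 and the LEA7 window 5, and the albumin gene SESA3 had 7 overlapping and single matches of the RY motif. A palindromic CACGTG counts as 2 matches of ACGTG, since it reads the same on both strands.

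Across the genome ACGTG was commoner before genes called at least 8-fold lower than before all genes searched. It lay in 23.5% of all 17548 promoters, in 51.0% of the 563 promoters of genes called at least 8-fold lower, and in 60.2% of the 256 past 32-fold lower. Among 371 promoters of genes at least 8-fold higher the share was 27.0%. The palindrome CACGTG was in 7.92% of all promoters, 27.5% of those at least 8-fold lower and 33.6% of those past 32-fold lower. CATGCA was in 7.37% of all promoters, 18.8% at 8-fold lower, 28.5% at 32-fold lower and 12.1% at 8-fold higher. By list, ACGTG was found before 12 of the 15 LEA genes (80.0%) and CATGCA before 13 of the 14 tested storage genes (92.9%). Lists with more rises than falls, described below, were mixed. ACGTG lay before 18 of 41 core histone genes (43.9%) and 6 of 12 searched genes of the ethylene response factor list. It lay before 7 of 26 replication, 20 of 132 ribosomal protein and 2 of 21 wall-loosening genes. CATGCA lay before 4 of those 12 response factor genes and 2 of 41 histone genes. It lay before 3 of 26, 8 of 132 and 3 of 21 genes of the other lists. High shares were thus not confined to lists that fell. These shares describe letters in a window; no test was made of them, and binding was not measured.

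**Figure D2:**
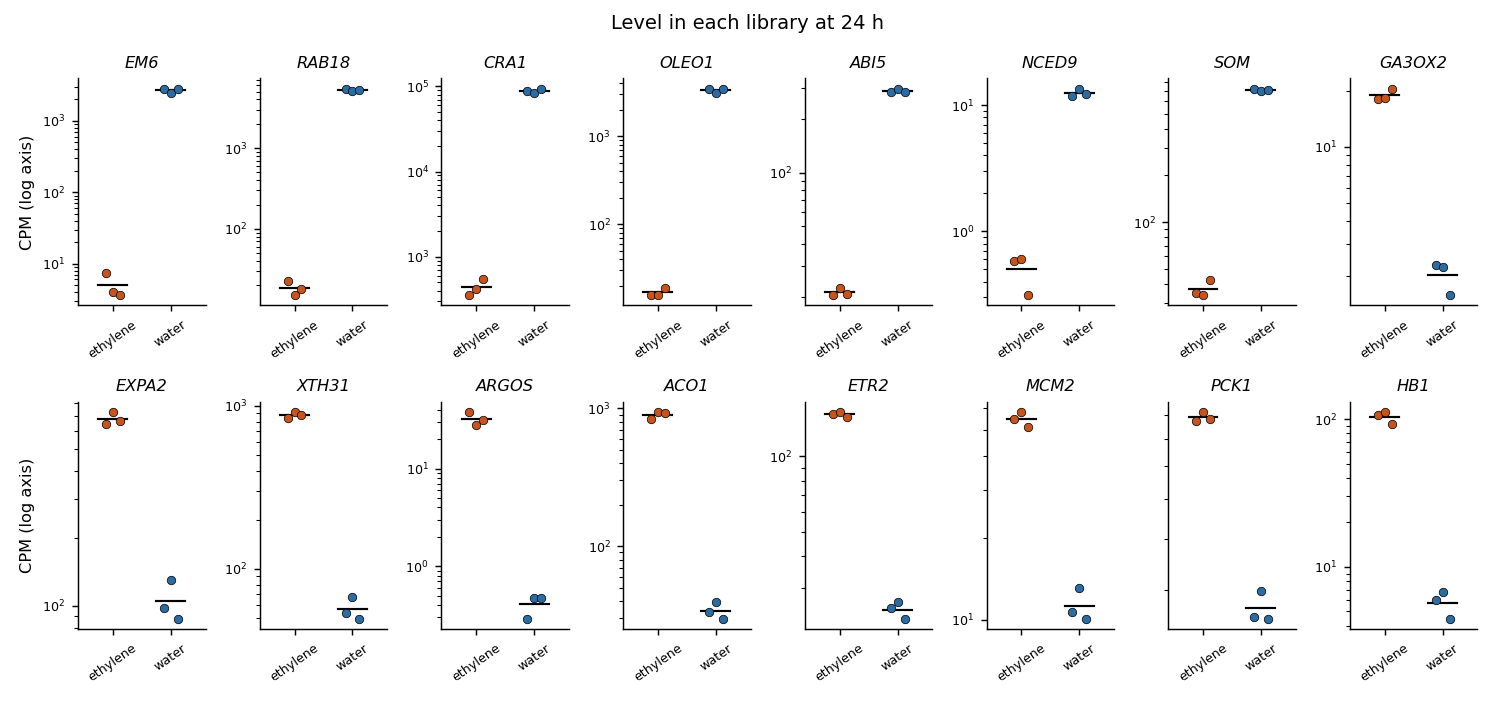
Level of 16 genes in each of the 6 libraries at 24 h, in CPM on a log axis, with ethylene libraries left and water libraries right in each panel; points are single libraries. EM6, RAB18, CRA1, OLEO1, ABI5, NCED9 and SOM sit lower in every ethylene library, and the other 9 genes sit higher.

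Abscisic acid synthesis runs through ABA1 and the NCED enzymes, and CYP707A hydroxylases break the hormone down. Of 15 listed genes of both branches, 11 were tested, 4 rose and 7 fell, at a median of -0.85. NCED9, a seed NCED gene, had 0.582, 0.605 and 0.312 CPM with ethylene, against 11.8, 13.4 and 12.3 CPM with water (log2 difference -4.63 ± 0.19, adjusted p = 6.90e-15). NCED5, NCED6 and ABA1 fell by 2.99, 2.17 and 3.45. The groups did not overlap in these genes, although NCED9 was read at under 1 CPM with ethylene. Breakdown genes were split: CYP707A2, the main hydroxylase of imbibed seeds, had 3.08, 3.5 and 1.65 CPM with ethylene and 21.4, 20.8 and 23.2 CPM with water, whereas CYP707A1 and CYP707A3 rose by 1.37 and 1.54. ABA2, which makes abscisic aldehyde, rose by 1.17.

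Abscisic acid is sensed by PYR/PYL receptors, which then inhibit PP2C phosphatases and so free SnRK2 kinases. Of 21 listed members, 9 rose and 10 fell, shares near those of all genes, and the median of -0.09 turned positive under 3 of 14 other settings. Within the list the members went far in opposite directions. The receptor genes PYL2 and PYL6 rose by 3.28 and 2.86, and PYL7 fell by 4.25. PYL7 had 0.707, 0.734 and 0.758 CPM in ethylene seeds, against 14.9, 12.2 and 15.2 CPM in water seeds. Among phosphatases, ABI1 rose by 2.63, while AHG1 and HAI3 fell by 4.97 and 6.16. AHG1, whose protein acts with the dormancy protein DOG1 in seeds, had 4.87, 4.02 and 4.95 CPM with ethylene and 151, 139 and 144 CPM with water. The kinase gene OST1, best known from guard cells, rose by 1.92.

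The transcription factors of seed maturation mostly fell. Of 13 listed, 11 were tested, 3 rose and 8 fell, at a median of -1.26. ABI5 (AT2G36270), the bZIP factor that activates EM genes, had 20.5, 22.5 and 20.7 CPM with ethylene, against 284, 296 and 284 CPM with water, 13.5-fold lower (log2 difference -3.76 ± 0.06, edgeR's quasi-likelihood test, adjusted p = 1.48e-21). ABI3, a B3 factor of the same programme, had 84.6, 83.6 and 80.2 CPM with ethylene and 460.4, 493 and 495 CPM with water, and its relative FUS3 fell by 0.48, which was not called with library totals (-0.14) or with 17 or 18 imbibed libraries in 1 fit (-0.25 and -0.26). EEL, a bZIP factor related to ABI5, fell by 4.65, and the heat shock factor gene HSFA9, which acts in late embryos, had 4 reads in all with ethylene and 920 with water. Not all factors went down. ABI4, an AP2 factor of abscisic acid signalling, had 71.7, 73.6 and 71.2 CPM with ethylene and 29.5, 29.3 and 29.7 CPM with water, higher in every ethylene library (log2 difference 1.29 ± 0.06), and ABF2 and ABF3 rose by 1.35 and 1.61.

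Gibberellin synthesis ends with the GA20OX and then GA3OX enzymes, and GA3OX gives the active hormone. Of 14 listed synthesis genes, 10 were tested, 3 rose and 6 fell, at a median of -0.48. The genes of the last step rose: GA3OX2 had 18.1, 18.4 and 20.6 CPM with ethylene, against 2.3, 2.24 and 1.58 CPM with water (log2 difference 3.24 ± 0.13, adjusted p = 9.50e-15), and GA3OX1 rose by 2.05. GA20OX1 rose by 1.74, while GA20OX3 had 90.4, 96.8 and 104 CPM in ethylene seeds and 533, 548 and 523 CPM in water seeds. Early steps were lower, with GA1 (CPS) at -1.49 and GA2 (KS) at -0.83. The inactivating enzymes moved both ways: GA2OX2, active in dry and dark-imbibed seeds, had 0.666, 0.777 and 0.714 CPM with ethylene and 24, 27.4 and 24.7 CPM with water, whereas GA2OX3, described above, rose and had no read in water.

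Gibberellin is perceived by GID1 receptors, which target DELLA repressors for breakdown, and GASA peptides are among its targets. Of 17 listed, 16 were tested, with 8 higher and 8 lower. GID1B rose by 2.32, while GID1A and GID1C fell by 2.63 and 1.77. Of the DELLA genes, RGL2, the main germination repressor, fell by 1.08 and RGL1 rose by 2.5. The peptide genes stood at opposite ends: GASA6 had 480.2, 452 and 452 CPM with ethylene, against 37.3, 43.1 and 33 CPM with water, whereas GASA3 had 1.37, 0.95 and 1.43 CPM with ethylene, against 665, 566 and 669 CPM with water. GASA14 rose by 2.82.

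Dormancy regulators were lower as a group, with 13 of 14 tested, 3 higher and 10 lower at a median of -0.87. SOM, a zinc finger gene that represses germination in the dark, had 35, 33.8 and 42.5 CPM in ethylene seeds, against 723, 699 and 712 CPM in water seeds (log2 difference -4.26 ± 0.07, adjusted p = 7.42e-21). RDO5, a phosphatase-like dormancy gene, fell by 3.22, and MFT, which promotes dormancy in response to abscisic acid, had 16.1, 17.3 and 20.1 CPM with ethylene and 112, 103 and 102 CPM with water. DOG1, the central dormancy gene, was too low to be tested, with 1 read over the ethylene libraries and 35 over the water libraries, a water to ethylene ratio of 54.9 with a 95% exact counting interval from 9.22 to 2228. The bHLH gene SPT, which acts on germination in the cold and light, rose by 2.34, as did HFR1 by 2.0 and DAG2 by 1.04. Heat shock genes, which mature seeds hold at high levels, had 5 of 8 tested and all 5 fell, led by HSP17.6A at -4.53 and HSP17.4 at -3.66. With 18 imbibed libraries in 1 fit all 8 were tested, of which 6 fell and none rose.

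Genes of the ethylene pathway itself went both ways. Of 16 listed for perception and signalling, 8 rose and 4 fell, at a median of 0.28. The receptor gene ETR2, a known target of ethylene, had 148, 149 and 144 CPM with ethylene, against 24.9, 26.2 and 22.6 CPM with water (log2 difference 2.58 ± 0.06, edgeR's quasi-likelihood test, adjusted p = 1.36e-18). ERS1 rose by 2.88 and EIN4 by 1.18, and ETR1 fell by 0.41, a change that was not called with library totals. ARGOS had 37.7, 28.3 and 31.7 CPM with ethylene, against 0.288, 0.472 and 0.469 CPM with water, and its relative ARL rose by 3.12. In the core of the pathway, EIN3 had 133, 139 and 132 CPM with ethylene and 399, 422 and 442 CPM with water, lower in every ethylene library (log2 difference -1.64 ± 0.05), and its partner EIL1 rose by 0.90. CTR1 rose by 0.40. EBF2, whose F-box protein degrades EIN3 and which ethylene induces in seedlings, had 242, 219 and 227 CPM with ethylene and 214, 228 and 239 CPM with water; the groups overlapped and the difference was not called (log2 difference 0.01 ± 0.05, adjusted p = 0.804).

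Ethylene response factors and the related EDF and RAV factors carry the signal on. Of 16 listed, 13 were tested, 8 rose and 3 fell, at a median of 2.11 (0.79 over the 15 tested with no filter on low counts). EDF3 had 20.3, 19.4 and 18.3 CPM in ethylene seeds, against 0.192, 0.531 and 1.06 CPM in water seeds, and its relatives TEM1 (EDF1), RAV2 (EDF2) and RAV1 rose by 2.7, 2.94 and 2.99. HLS1, a gene needed for the apical hook that is counted in this list, rose by 2.34. The ERF genes themselves were split, so the rises of the list lean on the EDF and RAV genes and HLS1. ERF11, ERF5 and ERF4 rose by 2.67, 2.11 and 0.79. ERF2, ERF104 and ERF-1 fell by 2.41, 2.55 and 1.66, and ERF6 and ERF105 were not called. ERF1, the direct target of EIN3, was not tested, with 8 reads over the ethylene libraries and 10 over the water libraries, an ethylene to water ratio of 0.510 with a 95% exact counting interval from 0.175 to 1.44, so no difference was detectable at this depth. The GCC box GCCGCC, which such factors bind, lay in 2.06% of all promoters and in 1.08% of those of genes at least 8-fold higher.

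Synthesis of ethylene had its own pattern, with 10 of 17 listed genes tested, 6 higher and 2 lower at a median of 0.64. With no filter on low counts 14 were tested, and the median was 0.05. Genes of ACC oxidase, the enzyme of the last step, were among those that rose. ACO1 had 844, 935 and 930.2 CPM with ethylene, against 33.4, 39.2 and 29.7 CPM with water (log2 difference 4.72 ± 0.08, adjusted p = 1.09e-20). ACO5 had 36.3, 36 and 37.6 CPM with ethylene and 1.34, 1.18 and 0.762 CPM with water. ACS2, which makes the precursor ACC, went the other way, at 0.0416, 0.13 and 0.0892 CPM in ethylene seeds, against 19.7, 18.7 and 21.3 CPM in water seeds. The groups lay far apart in all of these, and 7 of the 9 ACS genes were too low to be tested.

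**Figure D3:**
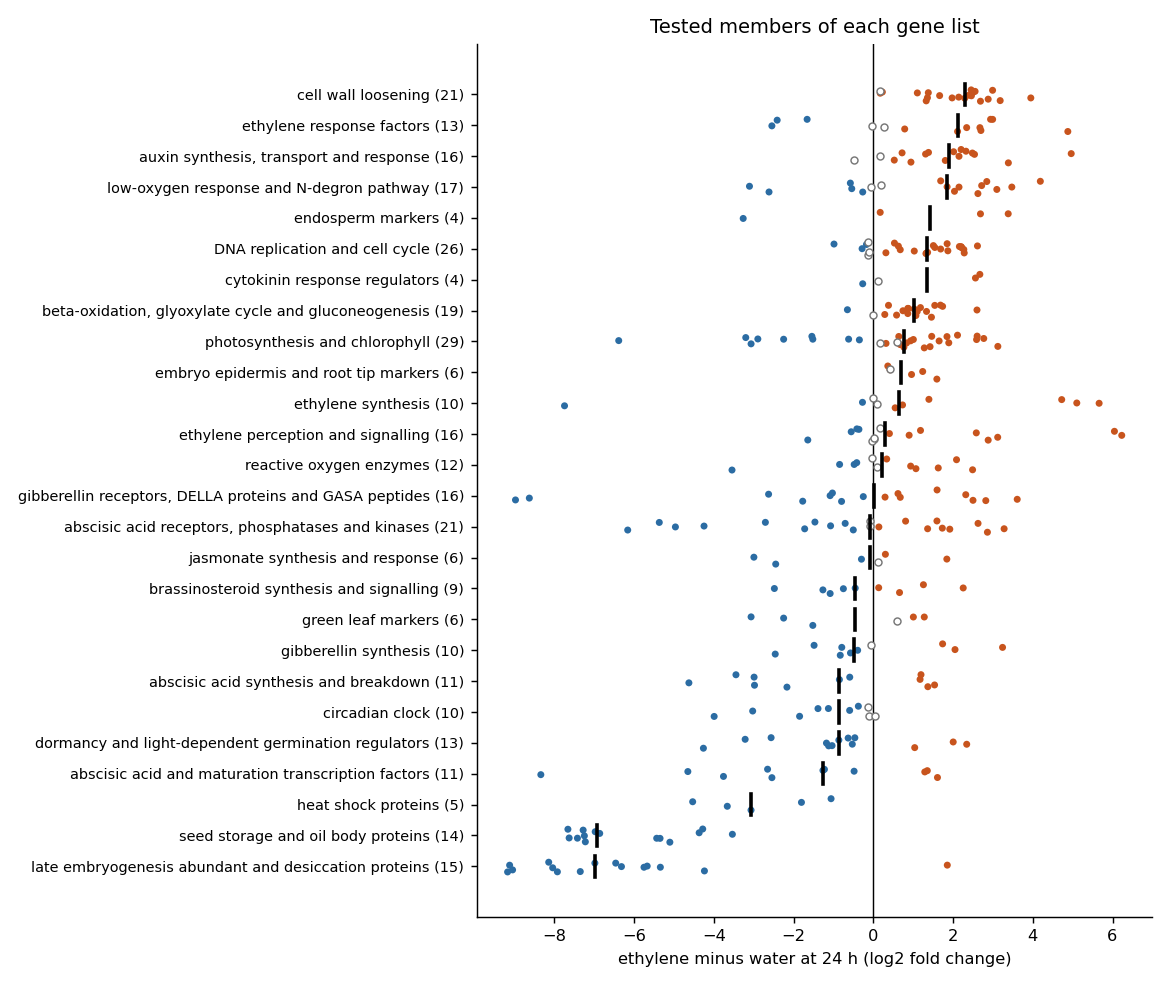
Log2 difference between ethylene and water seeds at 24 h for each tested member of the gene lists, 1 row per list, with 1 point per gene and the list's median marked. Storage and LEA lists lie at medians of -6.92 and -6.99, and cell wall loosening, auxin and replication lists lie above 0.

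Growth genes formed the other side of the comparison. For a seed to germinate, the embryo's cells elongate and the endosperm in front of the root tip gives way, and expansins and xyloglucan enzymes loosen walls in both. Of 23 listed wall-loosening genes, 21 were tested, 20 rose and none fell in the test with all 6 libraries, at a median of 2.29; 1 fell without water replicate 1. Their share of gene reads lay between 0.513% and 0.524% in ethylene seeds, against 0.059% to 0.0783% in water seeds. EXPA2 (AT5G05290), an expansin gene of the germinating endosperm, had 647, 728 and 669 CPM with ethylene, against 98.1, 131 and 87.5 CPM with water (log2 difference 2.69 ± 0.10, edgeR's quasi-likelihood test, adjusted p = 1.72e-15). XTH31 had 837, 909 and 880.0 CPM with ethylene, against 53.2, 66.9 and 49.3 CPM with water, 15.5-fold higher. EXPA8, EXPA9 and EXPA1 rose by 2.99, 2.88 and 2.55, and XTH19 by 3.18. The mannanase gene MAN7, active in the endosperm, was at 0.17, with groups that overlapped, and was not called by DESeq2 (adjusted p = 0.0585), without ethylene replicate 2 (0.09) or without water replicate 3 (0.11). By product name, 15 of the 17 tested xyloglucan enzymes rose and 2 fell, among them XTH25, which had 3.16, 0.82 and 0.981 CPM in ethylene seeds, against 357, 295 and 339.9 CPM in water seeds.

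Water uptake drives that elongation, and aquaporins of the plasma membrane (PIP) and vacuole (TIP) carry it. Of 37 aquaporin genes, 21 were tested, 15 rose and 5 fell, at a median of 1.46. PIP1C, PIP2;8 and PIP3 rose by 2.16, 2.08 and 2.01. TIP3;1 and BETA-TIP, the seed-specific channels of the protein storage vacuole, fell by 7.86 and 6.87; TIP3;1 had 6.86, 6.39 and 8.7 CPM with ethylene, against 1719, 1601 and 1770.4 CPM with water. Aquaporin reads summed to between 0.107% and 0.113% of gene reads in ethylene seeds, against 0.247% to 0.266% in water seeds, and both storage vacuole channels, at 1697 ± 86.9 and 785 ± 46 CPM (SD, n = 3), made up most of the water value.

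Auxin genes rose together with the wall genes: of 19 listed, 16 were tested, 14 rose and none fell, at a median of 1.91. The transporters AUX1 and PIN2, which carry auxin in the root tip, rose by 2.54 and 2.32, and PIN3 by 2.15. TAA1, for auxin synthesis, had 14.3, 16.4 and 13.8 CPM with ethylene and 3.74, 3.95 and 3.34 CPM with water. The repressor gene IAA19 rose by 3.39, and GH3.3, which conjugates auxin to amino acids, had 3.45, 5.53 and 4.28 CPM with ethylene, against 0.192, 0.236 and 0 CPM with water. Every one of these was higher in each ethylene library.

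Replication genes were higher as well. Of 27 listed genes of replication and the cell cycle, 26 were tested, 20 rose and 3 fell, at a median of 1.35. MCM2, a subunit of the replicative helicase, had 55, 57.9 and 51.2 CPM with ethylene, against 10.7, 13.1 and 10.09 CPM with water (log2 difference 2.27 ± 0.09, adjusted p = 3.45e-15). The other subunits MCM3, MCM4, MCM5, MCM6 and MCM7 rose by 2.21, 2.16, 1.87, 2.2 and 2.22, and the sliding clamp gene PCNA1 by 2.61. CDC6, which loads the helicase, rose by 2.28. Of the B-type cyclins and kinases in the list, CYCB1;1 had 1.54, 2.55 and 1.78 CPM in ethylene seeds, against 3.55, 4.36 and 3.64 CPM in water seeds (log2 difference -0.99 ± 0.20), CDKB1;1 rose by 1.36, and CDKB2;1 and CYCB1;2 were at -0.11 and -0.15. The inhibitor genes KRP1 and KRP2 rose by 1.54 and 1.69.

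The helicase genes are shown with their promoter stretches because 4 of them carry the same short motif. TTCCCGC, a form of the site of E2F factors, was found in 1.28% of all 17548 promoters and in 5 of the 26 tested members of the replication list (19.2%), which were MCM2, MCM3, MCM5, MCM6 and PCNA2. Capitals mark it, or its complement, with up to 20 bases on each side, 5′ to 3′ on the strand of the gene, from RefSeq gene models on TAIR10.1.
MCM2, chr1:16970181-16970213, plus strand: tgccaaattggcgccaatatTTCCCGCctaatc
MCM3, chr5:18773742-18773788, minus strand: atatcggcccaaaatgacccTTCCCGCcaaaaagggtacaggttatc
MCM5, chr2:3527501-3527538, minus strand: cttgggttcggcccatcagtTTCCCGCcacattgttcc
MCM6, chr5:18010687-18010733, minus strand: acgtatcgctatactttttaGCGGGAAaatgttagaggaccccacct
The MCM6 match lies on the other strand, where it reads as the complement. A match is a description of the letters, and no factor's binding was measured.

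Chromatin, cytoskeleton and ribosome genes also differed, by smaller amounts. Of 41 tested core histone genes, 28 rose and 9 fell, at a median of 0.84. AT1G08170, a histone gene, was far below the rest at -8.01. Of 13 tubulin genes, 12 rose and none fell in the test with all 6 libraries, 1 falling without water replicate 2, and TUB1 and TUB5 rose by 2.47 and 2.57. Of 132 tested genes for ribosomal proteins of eukaryotic type, picked by product name, 99 rose and 21 fell, at a median of 0.49. Their reads came to between 5.89% and 6.08% of gene reads in ethylene seeds, against 3.33% to 3.57% in water seeds. After scaling the gap was smaller, at 51844 to 53935 CPM with ethylene and 37860 to 40197 CPM with water. The site II motif TGGGCC and the telo box AAACCCT lay before 45.5% and 19.7% of these 132 genes, against 18% and 6.55% of all promoters.

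Seedlings live on stored oil until they turn green, through beta-oxidation in peroxisomes, the glyoxylate cycle and gluconeogenesis. Of 19 listed genes, 17 rose and 1 fell, at a median of 1.02. Their share of gene reads lay between 5.4% and 5.6% in ethylene seeds, against 2.67% to 2.94% in water seeds. After scaling the gap was smaller, at 47574 to 50114 CPM with ethylene and 29942 to 33119 CPM with water. PCK1, which encodes the key enzyme of gluconeogenesis, had 7728, 8113 and 7827 CPM with ethylene, against 2589.8, 2989 and 2557 CPM with water (log2 difference 1.54 ± 0.07, edgeR's quasi-likelihood test, adjusted p = 4.03e-14). The peroxisomal citrate synthase gene CSY2 rose by 2.6 and the acyl-CoA oxidase gene ACX3 by 1.74. The glyoxylate enzymes ICL and MLS rose by only 0.38 and 0.29, changes close in size to the shift that scaling by library totals makes. AIM1, for another multifunctional protein of beta-oxidation, fell by 0.65.

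The low-oxygen list, of fermentation genes, their ERF-VII activators and the N-degron pathway that destroys those, had 10 of 17 members higher and 5 lower, at a median of 1.85. HB1, a haemoglobin gene whose protein scavenges nitric oxide, had 107, 111 and 92.5 CPM with ethylene, against 5.95, 6.72 and 4.46 CPM with water (log2 difference 4.19 ± 0.10). Fermentation genes PDC1 and ADH1 rose by 2.72 and 2.15, the sucrose synthase gene SUS4 by 3.47, and the ERF-VII gene HRE2 by 3.1. The ERF-VII gene RAP2.3 had 275, 315 and 318 CPM in ethylene seeds and 1884, 1841 and 1845 CPM in water seeds, and PDC2 fell by 3.11. Summed over the list, reads were lower with ethylene, at 0.233% to 0.239% of gene reads, against 0.285% to 0.29% in water seeds, so the median and the sum differ in sign. Among enzymes of reactive oxygen, 6 of 12 tested rose and 4 fell. Catalase CAT3 had 231, 249 and 257 CPM with ethylene and 2814, 2823 and 2964 CPM with water, and the ascorbate peroxidase gene APX1 rose by 2.49.

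Other hormones and the clock were less uniform. Of 9 brassinosteroid genes, 4 rose and 5 fell: the transcription factor genes BZR1 and BES1 rose by 2.25 and 1.26, their kinase gene BIN2 fell by 1.27, and the synthesis gene ROT3 fell by 2.48. DWF4, for a rate-limiting step of that synthesis, fell by 0.46 (adjusted p = 3.59e-05), which was not called with library totals (-0.11) or with 18 imbibed libraries in 1 fit (-0.22). The type-A response regulator genes ARR4 and ARR7, induced by cytokinin, rose by 2.56 and 2.67. In the jasmonate list 2 of 6 tested genes rose and 3 fell, with the synthesis gene AOS at -3.0 and the repressor gene JAZ1 at 1.84. Of 10 clock genes, none rose and 7 fell with the scaling used here, at a median of -0.86, whereas 3 rose with library totals. RVE8 fell by 3.99, PRR5 by 3.03 and TOC1 by 1.85, and all 3 were lower in every ethylene library.

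Markers of the seed's tissues were read in both groups. Of 7 listed markers of the embryo epidermis and root tip, 6 were tested, 5 rose and none fell; PDF1, for the epidermis, had 328, 345 and 321 CPM with ethylene and 112, 117 and 101 CPM with water. Their summed level lay between 0.0585% and 0.0624% of gene reads in ethylene seeds, against 0.0221% to 0.0242% in water seeds. Of the endosperm markers, 4 of 5 were tested, 3 rose and 1 fell. EPR1, an endosperm extensin-like gene, had 631, 788 and 617 CPM with ethylene and 6171, 6667 and 6742 CPM with water, whereas the sucrose transporter gene SUC5 rose by 3.38. The summed endosperm level lay between 0.154% and 0.180% of gene reads in ethylene seeds, against 0.565% to 0.611% in water seeds. EPR1 made up most of the water value. In ethylene seeds EXPA2, at 647, 728 and 669 CPM, was about as high as EPR1. Seed coat markers were near absent: BAN had 3 reads with ethylene and 5 with water, TT10 had 1 with ethylene and 2 with water, and MUM4, also active outside the coat, rose by 1.41. The part of tissue proportions in the lists above was not tested.

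Photosynthesis genes prepare the seedling for light. With all 6 libraries, 29 of 33 listed genes were tested, 18 rose and 9 fell, at a median of 0.77. Without water replicate 3, 23 rose and 1 fell, where 41.3% of all genes were called higher and 40.5% lower. Among genes of chlorophyll synthesis and carbon fixation, some rose either way: GUN5, for a subunit of magnesium chelatase, had 21.5, 21.2 and 21.2 CPM with ethylene and 1.34, 3.24 and 2.35 CPM with water, and PORB, RBCS3B and PRK rose by 2.6, 2.59 and 2.77.

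The 9 decreases came mostly from a single library. LHCB1.2, for a chlorophyll-binding protein of photosystem II, had 0.749, 0.605 and 0.491 CPM in ethylene seeds, against 0.192, 1.3 and 147 CPM in water seeds. LHB1B2 had 0.998, 1.12 and 1.29 CPM with ethylene, against 0.192, 2.123 and 214 CPM with water, and LHCB5 had 2.54, 1.55 and 2.94 CPM with ethylene, against 0.96, 1.77 and 57.7 CPM with water. In each, water replicate 3 stood far above both other water libraries. LHCB1.1, not tested, had 2 reads over the ethylene libraries and 2412 over the water libraries, of which 2398 were in replicate 3 and 14 in replicate 2. LHB1B1, also not tested, had 0, 14 and 576 reads in water replicates 1, 2 and 3. A search of all tested genes for those at 5 CPM or more and at least 8 times both other replicates found 7 genes in water replicate 3, all of them light-harvesting genes (LHB1B2, LHCA2, LHCA3, LHCB1.2, LHCB1.3, LHCB3 and LHCB5), and none in any other library of the comparison. LHCB4.1 did not share the pattern, at 68.4, 59.9 and 70.3 CPM in ethylene seeds and 102, 99.3 and 104 CPM in water seeds. Water replicate 3 also had the most unmapped reads, 2.04%, against 0.297% and 1.0% in the other water libraries, and the RuBisCO activase gene RCA stood at 174, 175 and 178 CPM with ethylene and 44.7, 49.1 and 163 CPM with water. The source of these reads was not tested.

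In the other 5 libraries the 7 light-harvesting genes of that search were under 5 CPM. Without water replicate 3, LHCA3, LHCB3, LHCB1.3 and LHCA2 were then higher with ethylene, by 1.82, 2.17, 1.47 and 0.95, whereas LHCB5 at 0.68, LHB1B2 at -0.26 and LHCB1.2 at -0.49 were not called. LHB1B2 and LHCB1.2 had 36 and 22 reads in water replicate 2, against 2 each in the shallower replicate 1. Several LHCB1 genes are close copies, so their reads may be split between them. RCA and the Calvin cycle gene GAPA, which rose by 1.0 (not called by DESeq2, adjusted p = 0.105) and 0.83 with all 6 libraries, rose by 1.89 and 1.37 without it. The green leaf markers had 5 higher and none lower of 6 tested without this library, against 2 higher and 3 lower with it. Over all genes the calls hardly moved, at 7659 higher and 7513 lower, and 14863 of the 15458 calls kept their direction.

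**Figure D4:**
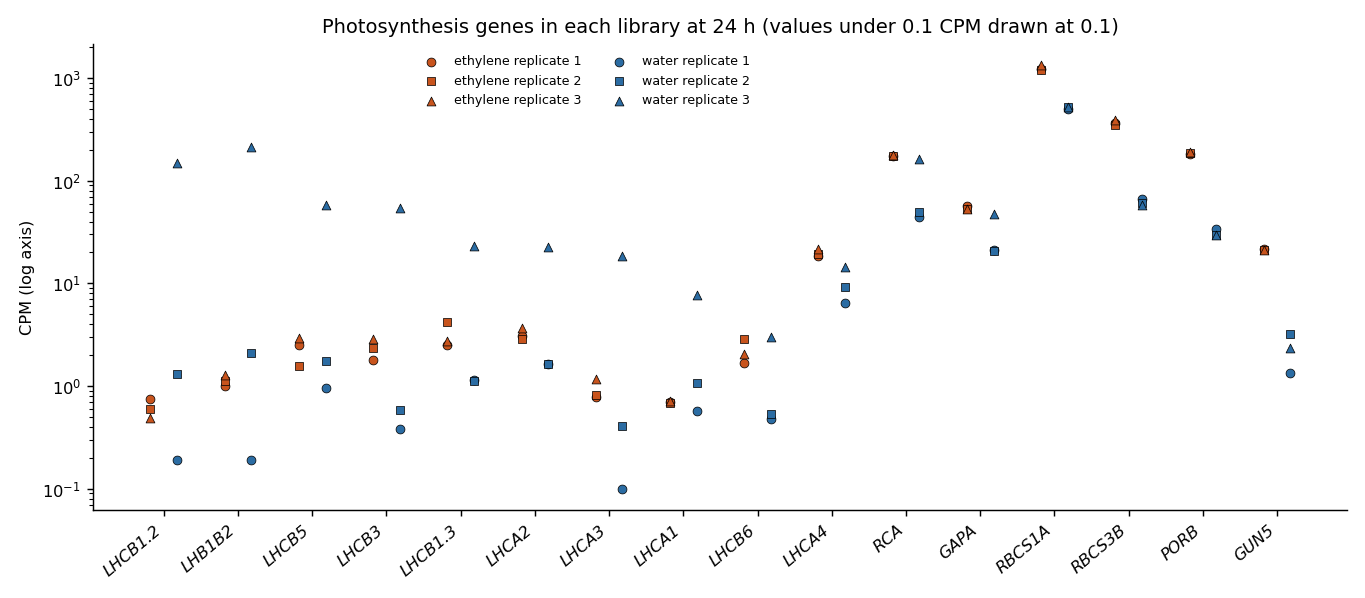
Levels of photosynthesis and chlorophyll genes in the 6 libraries at 24 h, in CPM on a log axis, with ethylene libraries left of water libraries and values under 0.1 drawn at 0.1. Water replicate 3 lies far above both other water libraries in the light-harvesting genes such as LHCB1.2, while GUN5 and PORB are higher in all ethylene libraries.

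The same contrast at 6 h held far fewer differences. In a joint fit of the 12 libraries at 6 and 24 h, scaled over those 12, 1906 of 18680 genes (10.2%) were called at 6 h and 15780 (84.5%) at 24 h. The difference between ethylene and water seeds changed between the times for 13257 genes (71.0%), with 7475 (40%) more positive at 24 h and 5782 (31.0%) more negative, and with a median change of 0.22 over all genes. EM6 differed by -0.30 at 6 h and by -8.81 at 24 h, RAB18 by -0.24 and -7.91, and CRA1 by -0.10 and -7.43. ABI5 differed by -0.28 at 6 h and -3.52 at 24 h. The change between times was called for each of these 4 genes. EXPA2 went against its later direction at 6 h, at -1.22, and stood at 2.92 at 24 h, and GA3OX2 was at 0.42 and then 3.48. The 6 h differences of CRA1 and GA3OX2 were not called (adjusted p = 0.602 and 0.458).

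Ethylene's own targets had different courses. ERF1 was high early, with a difference of 3.95 at 6 h and -0.70 at 24 h, of which the second was not called (adjusted p = 0.306). In CPM scaled over all 21 libraries, it stood at 6.62 ± 0.261 with ethylene and 0.418 ± 0.0768 with water at 6 h (SD, n = 3 each), and at 0.0976 ± 0.0568 with ethylene and 0.175 ± 0.11 with water at 24 h. EBF2 showed a difference of 0.79 at 6 h, against 0.25 at 24 h, and the change between times was called (edgeR's quasi-likelihood test, adjusted p = 5.97e-08). The 24 h difference of EBF2 was itself called in this joint fit (adjusted p = 4.05e-05), unlike in the fit of the 6 libraries, where it was 0.01. Other 24 h differences were also higher in the joint fit, as for CTR1 (0.40 and then 0.64) and DWF4 (-0.46 and then -0.22). Whether EBF2 is called at 24 h thus depends on the scaling. ETR2 was raised at both times, by 2.22 and 2.82, and ARGOS by 6.18 and 6.46, and the change was called for ETR2 and not for ARGOS (adjusted p = 0.635). CTR1 differed by 0.81 and 0.64. The ARGOS level was 37.9 ± 2.06, 10.9 ± 9.43 and 27.3 ± 3.92 CPM at 6, 16 and 24 h with ethylene, against 0.475 ± 0.308, 0.0797 ± 0.0278 and 0.343 ± 0.0872 CPM with water (SD, n = 3 each). At 16 h the ethylene libraries held 15.5, 0.0497 and 17.1 CPM, so that mean mixes unlike libraries.

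The course of imbibition places the 24 h values. Levels here were scaled over all 21 libraries, so they differ somewhat from the 24 h levels above. In dry seeds, whose composition differs widely from that of imbibed seeds, EM6 was at 25357 ± 554 CPM and CRA1 at 46086 ± 3698 CPM (SD, n = 3). EM6 then stood at 1108 ± 47.6 CPM with ethylene and 1356 ± 22.2 CPM with water at 6 h, and at 4.21 ± 1.75 CPM with ethylene and 2252 ± 168 CPM with water at 24 h. CRA1 stood at 7950.5 ± 176 CPM with ethylene and 8459 ± 327 CPM with water at 6 h, and at 368 ± 80.7 CPM with ethylene and 74278 ± 3954 CPM with water at 24 h. The CRA1 level in water seeds at 24 h was thus above that at 6 h, and the low level at 24 h was found with ethylene. MCM2, barely read in dry seeds at 0.211 ± 0.104 CPM, stood at 45.9 ± 2.81 CPM with ethylene and 9.45 ± 1.31 CPM with water at 24 h. At 16 h, ethylene replicate 2 lay with the water libraries in MCM2, and its 10 genes with most reads took 13.6% of its reads, against 5.52% and 5.41% in the other ethylene libraries of that time, so means at 16 h mix unlike libraries.

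**Figure D5:**
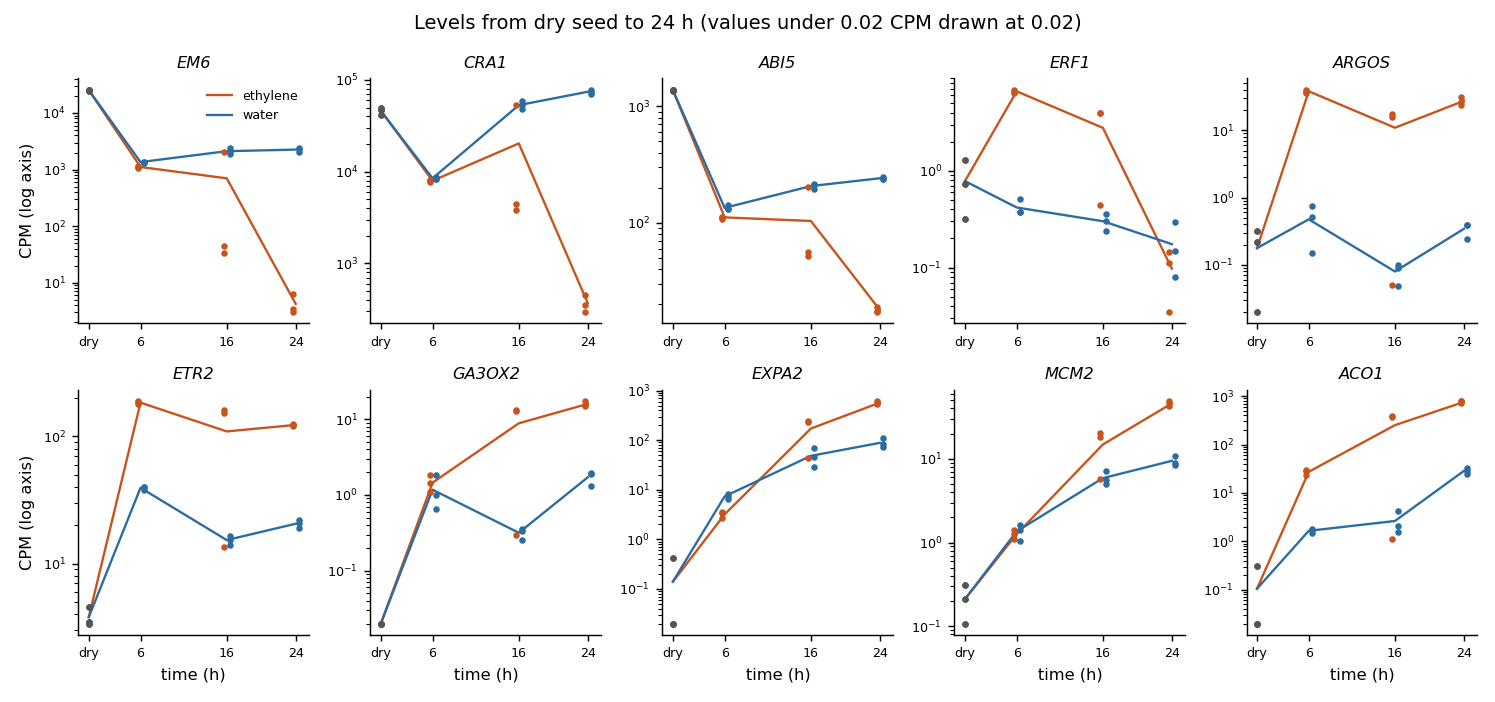
Levels of 10 genes in dry seeds and at 6, 16 and 24 h with ethylene and with water, in CPM on a log axis scaled over all 21 libraries; points are single libraries and lines join group means, with values under 0.02 drawn at 0.02. EM6, CRA1 and ABI5 with ethylene lie close to water at 6 h and far below it at 24 h. ERF1 is high with ethylene at 6 h, and 1 ethylene library at 16 h lies with the water libraries.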

How the data were processed

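The authors deposited raw counts of reads for 37336 genes in every library, and the counts on the reverse strand were used. Per the submitters' processing notes, the tool was STAR and the build TAIR10. Its version, the gene annotation and any trimming are not given in the sources used here. Between 94.5% and 97.4% of the reads of the 6 libraries were on genes, and the summary lines at the top of each file, for unmapped (0.209% to 2.04%), multiply mapped (1.44% to 1.6%), unassigned (0.752% to 1.82%) and ambiguous reads (0.133% to 0.155%), entered neither library sizes nor tests. Reads mapping to several places are not counted, so near-identical copies may be too low.

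Groups came from the sample titles. Genes with enough reads by filterByExpr (minimum count 10, minimum total count 15) were kept, 18245 of 37336, scaled by the trimmed mean of M values and tested with edgeR 4.0.16 (quasi-likelihood, R 4.3.3, limma 3.58.1), with Benjamini-Hochberg adjustment and an FDR threshold of 0.05. The biological coefficient of variation was 0.0518. The change between 6 and 24 h was an interaction term in a fit of 12 libraries. Replicates differed by more than sampling noise, with chi-square over degrees of freedom of 2.71 to 5.19, so none was counted as a copy. Counts were simulated for the 24 h comparison with 18245 genes, of which 67, 67 and 66 were changed 1.5-fold, 2-fold and 4-fold. All other genes were left unchanged, and a single spread was set for all genes. Of genes changed 1.5-fold 97.0% were recovered, and of those changed 2-fold or 4-fold 100%, and 4.81% of calls were of unchanged genes. In the data 84.7% of genes were called, so the simulation cannot show how far scaling moves the calls there.

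The text names the 10 called genes with the largest change in each direction, up to 4 members of each list or family, a fixed set of 12 genes also tested between times, and further list members where a list is described; 1 gene under that rule is not reported here. The 28 gene lists, the 16 families by product name and the members were chosen with earlier results of these data known. Gene symbols came from a reference table that matched 37051 of the 37336 identifiers. Alternatives were DESeq2 1.42.0, size factors by relative log expression, library totals, no filter on low counts, the unstranded column, a replicate block, 17 or 18 imbibed libraries in 1 fit, a stricter FDR of 0.01, a test against 2-fold and leaving out each library. Tables and figures were made with Python 3.11.15, pandas 2.3.3 and matplotlib 3.10.9.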

Additional observations from a re-analysis of the deposited data

Results flagged for a closer look

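The difference between ethylene and water seeds was tested for a change between 6 and 24 h, and 13257 genes passed. Among the 12 genes fixed for that test, 11 differed between the times, and these values are the 24 h difference minus the 6 h difference on the log2 scale. The maturation genes EM6, RAB18 and CRA1 had -8.51, -7.67 and -7.33, and ABI5 had -3.24. EXPA2 had 4.14 and GA3OX2 had 3.06. Of the ethylene pathway, ERF1 had -4.65, EBF2 -0.54, CTR1 -0.17 and ETR2 0.60. DWF4 had 0.96, as it was at -1.18 at 6 h and -0.22 at 24 h. The median change over all genes was 0.22, larger in size than that of CTR1.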

How the results depend on the processing

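The counts of called genes (with no threshold on fold) and of list members stayed within 1.5 times their value, in each direction, under each alternative run for them except where given here. A test against a 2-fold change called 6146 genes, 3278 higher and 2868 lower. Calls ranged from 15172 to 15371 with 1 library left out (7628 to 7721 higher, 7513 to 7650 lower), and for the change between times from 12851 to 13108 (7121 to 7359 higher, 5670 to 5804 lower). The numbers do not pair the replicates, since same-numbered deviations correlated at -0.02, 0.21 and -0.07; with a replicate block 15328 genes were called, 7723 higher and 7605 lower, and 13116 between times. DESeq2 called 15014 and 12587 between times, and library totals gave 9955 higher and 5575 lower.

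With all 18 imbibed libraries in 1 fit, or with 17 (without the ethylene library at 16 h that lies with water), decreases numbered 1 and 1 in the replication list, 0 and 0 among cytokinin regulators, and 11 and 13 among ribosomal proteins; with 18 they were 0 for expansins, 10 for nucleolar proteins and 5 for photosynthesis, and with 17 there was 1 increase among clock genes. With library totals, decreases were 1 in the replication list, 1 among arabinogalactan proteins, 0 among cytokinin regulators, 2 in ethylene perception, 1 in ethylene synthesis, 9 among nucleolar, 2 among reactive oxygen and 10 among ribosomal genes, and there were 3 increases among clock genes. DESeq2 gave 4 decreases among arabinogalactan proteins, 2 for photosynthesis, and 1 increase and 0 decreases for green leaf markers. No filter gave 4 decreases among arabinogalactan proteins, 1 in cell wall loosening and 6 in green leaf markers, and the unstranded column gave 4, 2 and 2 decreases among arabinogalactan proteins, peroxidases and expansins and 0 among cytokinin regulators. Leaving out 1 library moved decreases to 0 to 1 for cell wall loosening and tubulins, 0 to 4 for green leaf markers (2 to 5 increases), and 1 to 10 for photosynthesis, the last 2 by water replicate 3. Medians of 5 lists and 3 families changed sign under at least 1 alternative. Apart from library totals, which move every median, printed medians moved over 1.5 times with no filter, which tests more members (ethylene response factors 0.79, ethylene synthesis 0.05, gibberellin synthesis -0.23, SAUR genes 1.68), by DESeq2 (0.77, 0.04, -0.24 and 1.63 for the same, and 1.25 for GDSL lipases), with 17 or 18 libraries (0.52 each for ethylene perception, -0.25 each for gibberellin synthesis, 0.14 each for abscisic acid receptors and kinases), with the unstranded column (1.62 for SAUR genes), without water replicate 2 (-0.20 for those receptors and kinases) and without water replicate 3 (1.37 for photosynthesis). Genes at least 8-fold higher were 617 and those past 32-fold higher 87 with no filter. The cause was not tested beyond that library.

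With 1 library left out, log2 differences ranged from -2.10 to 0.95 for LHCA2, -3.52 to 1.82 for LHCA3, -2.11 to 1.47 for LHCB1.3, -3.69 to 2.17 for LHCB3 and -3.80 to 0.68 for LHCB5; the highest value of each, and its only reversal, came without water replicate 3. LHCB1.3 was also not called with the replicate block (-0.96), and LHCB4.1 was not called with 18 libraries (-0.39). Of single genes, EBF2 was called with 17 or 18 libraries (0.25 each) and with library totals (0.36), and the change of CTR1 between times was not called with library totals (-0.08) or without water replicate 3 (-0.12). Depth limits ERF1 and DOG1, which had too few reads to be tested.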

Other observations

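Further families of secreted and wall proteins rose with ethylene. Of 44 tested GDSL lipases, a large family of secreted esterases, 38 rose and 4 fell, at a median log2 difference of 1.95, and their reads came to between 0.452% and 0.463% of gene reads in ethylene seeds, against 0.137% to 0.155% in water seeds. AT1G28600 of that family had 50.7, 51.5 and 51.6 CPM with ethylene, against 3.46, 4.9 and 3.75 CPM with water. Of 21 class III peroxidases, which act in the wall, 18 rose and 1 fell, at a median of 2.22, among them AT5G64100 at 3.16. Of 23 arabinogalactan proteins, 21 rose and 2 fell, and AGP12 had 43.4, 43.4 and 46.7 CPM with ethylene, against 4.42, 4.6 and 2.81 CPM with water. Of 15 expansin genes by product name, 13 rose and 1 fell. Of 27 tested SAUR genes, whose small proteins promote elongation under auxin, 19 rose and 6 fell, at a median of 2.55. Yet the largest changes of that family were decreases, with AT1G16510 at -6.91, AT3G12955 at -6.17, AT3G60690 at -5.46 and SAUR36 at -4.78. Its highest rise was 3.61.

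Detoxifying families showed no common direction. Of 41 glutathione S-transferases, 19 rose and 18 fell, with GSTF3 at -7.33 and GSTF2 at -4.22, and with GSTF8 at 1.71. Of 82 UDP-glycosyltransferases, which attach sugars to hormones and other small molecules, 38 rose and 32 fell, and AT5G65550 had 0.416, 0.648 and 0.58 CPM with ethylene, against 124, 112 and 117 CPM with water. Of 37 tested nucleolar proteins, 16 rose and 16 fell, while the ribosomal protein genes mostly rose. By product name, 40 LEA genes were tested, 12 rose and 27 fell; the members that rose include the dehydrin gene ERD14 at 2.26, a stress gene of vegetative tissue, with 46, 53.9 and 53.8 CPM in ethylene seeds and 10.2, 12.8 and 8.91 CPM in water seeds. Of 30 HSP20-like genes, 9 rose and 14 fell. Among tested genes, 11 had no read in any ethylene library and 12 had none in any water library.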
